A study of Mus musculus with 73 samples.

Results

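Tex19.1, Sycp3, Dazl, Ddx4, Mael, Dmrtb1, Stk31 and Taf7l are genes of the mouse germline that are kept silent in somatic cells by methylation of their promoters or by dedicated repressors. They were taken by name, and all 8 were found among the 25220 gene symbols measured. Their transcripts were followed by RNA-seq in 8 libraries of early mouse embryos, all hybrid C57BL/6 / C3H and kept in KSOM, an embryo culture medium. EGFP 8-cell embryos gave 3 libraries, p150DN 8-cell embryos another 3 and EGFP blastocysts 2. Chaf1a encodes p150, a subunit of CAF-1, the chromatin assembly factor that places histones H3 and H4 on DNA as it is replicated. p150DN is a dominant-negative version of this subunit, as the name is read here, and embryos with EGFP, a green fluorescent protein, were its controls. The sources used here do not give how the constructs were delivered or how many embryos went into a library.

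Promoters of this kind of gene hold a moderate to high density of CpG, the dinucleotide that mammalian cells methylate. Methylation there, placed around implantation by the de novo methyltransferase Dnmt3b and kept by Dnmt1 with Uhrf1, blocks transcription in the body's cells, and erasure in primordial germ cells lets the genes come on. The preimplantation embryo has little DNA methylation. There, and in embryonic stem cells, much of the repression falls to PRC1.6, a Polycomb complex that is brought to DNA by E2F6, which reads the letters TCCCGC, and by MGA with MAX, which reads the E-box CACGTG, and to enzymes that methylate lysine 9 of histone H3. Oocytes express many of the same genes, so early embryos also carry maternal transcripts of them.

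The 250 bases before the annotated start of 4 of the genes are shown because they are the DNA that methylation and these repressors act on. They come from RefSeq (assembly GRCm38.p6, that of mm10), run 5′ to 3′ on the strand of the gene, and have every CpG in capitals. The Tex19.1 window is chr11:121145893-121146142 on the plus strand, the Sycp3 window chr10:88459337-88459586 on the plus strand, the Dazl window chr17:50293621-50293870 on the minus strand and the Mael window chr1:166238745-166238994 on the minus strand.
Tex19.1: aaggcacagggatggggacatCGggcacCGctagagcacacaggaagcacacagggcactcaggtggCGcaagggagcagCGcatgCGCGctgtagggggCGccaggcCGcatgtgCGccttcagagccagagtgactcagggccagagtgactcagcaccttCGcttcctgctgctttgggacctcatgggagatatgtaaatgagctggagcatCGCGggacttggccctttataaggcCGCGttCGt
Sycp3: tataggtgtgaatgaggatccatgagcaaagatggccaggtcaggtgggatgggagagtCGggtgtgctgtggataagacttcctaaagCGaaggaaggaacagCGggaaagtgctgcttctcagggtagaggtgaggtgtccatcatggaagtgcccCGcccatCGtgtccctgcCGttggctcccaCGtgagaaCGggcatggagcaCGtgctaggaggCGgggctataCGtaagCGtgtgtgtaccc
Dazl: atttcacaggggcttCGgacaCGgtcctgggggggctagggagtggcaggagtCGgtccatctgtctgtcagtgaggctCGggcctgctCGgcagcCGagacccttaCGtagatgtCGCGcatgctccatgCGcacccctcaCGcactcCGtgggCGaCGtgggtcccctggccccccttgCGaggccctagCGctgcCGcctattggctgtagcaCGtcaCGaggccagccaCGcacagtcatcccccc
Mael: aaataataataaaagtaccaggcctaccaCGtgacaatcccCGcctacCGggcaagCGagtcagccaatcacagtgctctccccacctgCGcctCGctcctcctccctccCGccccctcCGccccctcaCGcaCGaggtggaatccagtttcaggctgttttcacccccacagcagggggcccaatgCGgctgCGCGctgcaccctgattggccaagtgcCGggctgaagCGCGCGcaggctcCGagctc
The windows of Ddx4 and Dmrtb1 lie wholly, and those of Stk31 and Taf7l in part, within the annotated span of their own gene. They are not shown.

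All 8 genes had a promoter window in that table, which holds 32851 windows of 27025 genes. The median window held 6 CpG, with quartiles of 2 and 16. Sycp3 had 12, Taf7l 14, Tex19.1 15, Mael 18, Dazl 20, Stk31 21 and Ddx4 31 CpG in its window, so each of these 7 genes lay above the median and 4 of them lay above the upper quartile. Dmrtb1 was the lowest, with 7 CpG at the first of its 2 listed starts and 21 at the other. Both of its windows lie within the annotated span of the gene, not before its outer end. The plot of CpG per promoter window shows these counts on the distribution of all windows.

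The E-box CACGTG, which reads the same on both strands, was found in 6 of the 10 windows of the 8 genes and in 6.02% of all windows. These 6 windows belong to 5 genes, and the overlapping windows of Stk31 share their site. Sycp3 had 2 copies, whose first bases lay 64 and 43 bases before the start, Ddx4 had 1 at 29, Stk31 1 at 55, Taf7l 1 at 49 and Mael 1 at 223 bases. The letters TCCCGC, sought on both strands, were in 4 of the 10 windows, of 4 genes, and in 16.9% of all windows. They lay 33 bases before the start of Tex19.1, 147 before Sycp3, 136 before Ddx4 and 143 before Mael. Sycp3, Ddx4 and Mael held both motifs, which did not overlap in any of the 3 windows. The windows of Dazl and Dmrtb1 held neither. Both motifs hold a CpG, and the shares over all windows were not matched for CpG count. Matches are given as a description of the letters only.

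**Figure D1:**
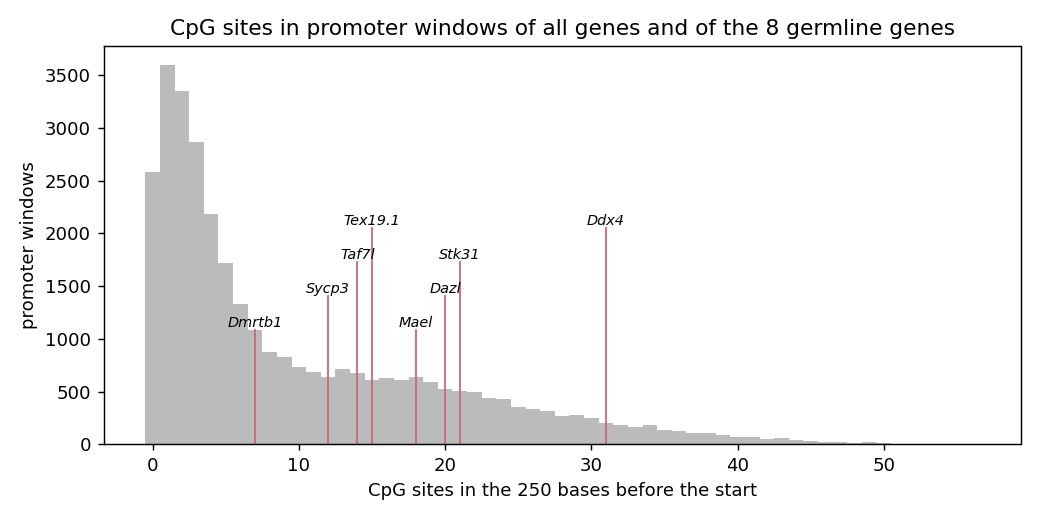
CpG sites in the 250 bases before the annotated start (x axis, count per window) for all 32851 RefSeq promoter windows (grey bars, y axis, number of windows), with red lines at the 8 germline genes (first listed start; line height only separates the names). Dmrtb1, at 7, sits next to the median of 6, and Ddx4, at 31, is the highest of the 8.

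Values are FPKM, the fragments counted per kilobase of a gene after bringing libraries to the same total, and tests are limma on log2(FPKM + 1), a scale on which changes of low genes come out too small. For p150DN against EGFP 8-cell embryos a gene was tested where 3 or more libraries reached 1 FPKM, and for the other comparisons where 2 or more did, and it was called below an adjusted p of 0.05. Between 16578221 and 22488477 fragments were counted per library. More genes were above 0 in p150DN replicates 2 and 3 (20465 and 21282) than in p150DN replicate 1 (18412), the EGFP 8-cell libraries (17310 to 18402) or the blastocyst libraries (18991 and 18547). Chaf1a, the gene behind the p150DN construct, stood at 165, 254 and 238 FPKM in p150DN and at 27.7, 30.2 and 28.8 FPKM in EGFP 8-cell embryos, the order the labels imply, although gene-level values do not separate the construct from the embryo's own gene. Whether replicates are separate cultures or litters is not in the labels, so the p-values cover only the spread among these libraries, and that spread may be technical. All comparisons draw on the same 8 libraries and so share samples. With whole embryos, fewer cells expressing a gene and less RNA per cell cannot be told apart.

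In p150DN 8-cell embryos Tex19.1, Sycp3 and Stk31 were higher and Dmrtb1 was lower than in EGFP 8-cell embryos. Tex19.1 and Sycp3 stood 4.38 and 2.96 times as high by group means, Stk31 1.77 times as high, and Dmrtb1 at 0.679 of its control level. Dazl, Ddx4 and Mael did not pass the test, and Taf7l was too low to be tested. Over all 11730 genes tested 34.3% were called, 24.6% higher and 9.68% lower, beside 3 higher and 1 lower of the 7 germline genes tested. The median difference of the 7 was 0.71 on the log2 scale and that of all tested genes was 0.19.

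That all-gene median lies above 0 and moves with the scaling of the libraries. Of the called genes 2887 were higher and 1136 lower, which became 2023 and 1994 with median-of-ratios scaling (median 0.0027) and 1748 and 1827 with quantile normalization (median −0.035). Under these 2 scalings Tex19.1 stayed higher by 1.90 and 2.14, Sycp3 stayed higher by 1.30 and 1.47, and Dmrtb1 stayed lower by −0.78 and −0.53, each still called. The call of Stk31 was lost under both, at differences of 0.52 and 0.35.

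**Figure D2:**
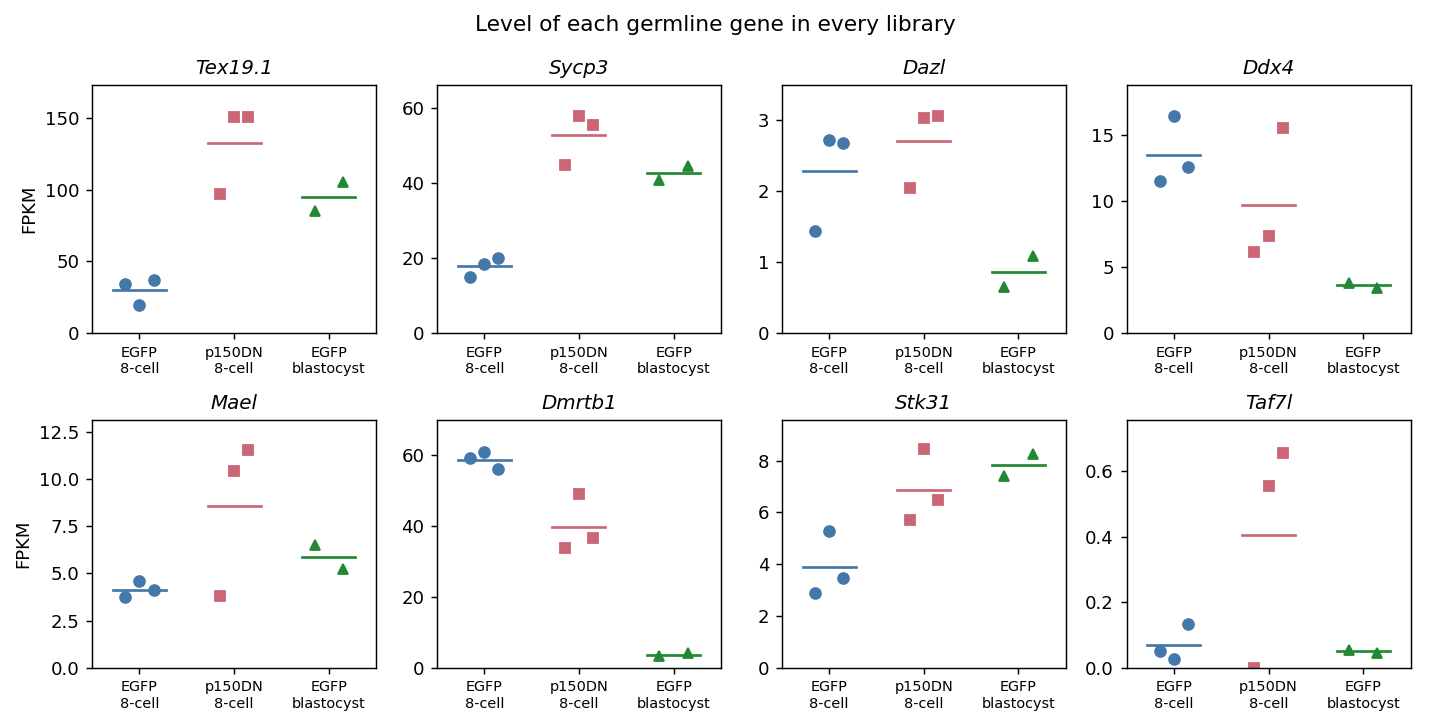
FPKM (y axis, its own scale in each panel, from 0) of each germline gene in the 8 libraries; each point is 1 library, in replicate order from left to right within a group, and the line is the group mean. The p150DN points of Tex19.1 and Sycp3 all lie above the EGFP 8-cell points, while those of Dmrtb1 all lie below them and the blastocyst points of Dmrtb1 lie near 0.

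Tex19.1 encodes a mammalian germ cell and placental protein known for holding back retrotransposons (chromosome 11, 121146143 to 121148314, mm10). It was at 34.5, 19.4 and 37.1 FPKM in EGFP 8-cell embryos, at 97.2, 150 and 151 FPKM in p150DN 8-cell embryos and at 84.8 and 106 FPKM in blastocysts, from 682 to 5114 fragments per library. The EGFP 8-cell libraries were the 3 lowest of the 8, and the p150DN and blastocyst libraries overlapped. The rise in p150DN was 2.12 ± 0.26 on the log2 scale (SE; limma, adjusted p = 0.000772) and the rise from the EGFP 8-cell stage to the blastocyst was 1.66 ± 0.27 (limma, adjusted p = 0.00145). p150DN embryos and blastocysts did not differ by the test, with a difference of 0.46 on the log2 scale and a 95% interval of −0.066 to 0.98 (limma, adjusted p = 0.161), but without p150DN replicate 1 this difference was 0.66 and was called (limma, adjusted p = 0.0249).

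A near copy of this gene, Tex19.2, lies on the same chromosome (121116215 to 121118677), and the sources used here do not say how fragments that match both were counted. Tex19.2 is looked at because its values were seen. It was at 0.610, 0.0966 and 0.0506 FPKM in EGFP 8-cell embryos, at 4.20, 5.82 and 7.19 FPKM in p150DN and at 11.1 and 12.4 FPKM in blastocysts. As with Tex19.1, the EGFP 8-cell libraries were the lowest. Tex19.1 was not called between p150DN embryos and blastocysts. Tex19.2 was lower in p150DN embryos than in blastocysts, by −0.95 on the log2 scale (limma, adjusted p = 0.0259). Its fragments numbered 2 to 572 per library, beside 682 to 5114 of Tex19.1.

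Sycp3 encodes a protein of the lateral element of the synaptonemal complex, the scaffold that joins homologous chromosomes in meiosis (chromosome 10, 88459587 to 88473236). Its FPKM were 15.0, 18.5 and 20.0 in EGFP 8-cell embryos, 44.9, 58.0 and 55.4 in p150DN and 40.9 and 44.6 in blastocysts. The 3 groups did not overlap in either comparison with the EGFP 8-cell libraries, and replicates lay close together. Sycp3 was higher in p150DN by 1.51 ± 0.16 on the log2 scale (SE; limma, adjusted p = 0.000448) and in blastocysts by 1.22 ± 0.15 (limma, adjusted p = 0.000413). Between p150DN and blastocysts the difference was 0.29, with a 95% interval of −0.082 to 0.66 (limma, adjusted p = 0.202). The end of the Sycp3 locus overlaps Chpt1, a gene of phospholipid synthesis, named here after its values were seen, whose level was 33.3 ± 2.10 FPKM in EGFP 8-cell and 33.7 ± 5.77 FPKM in p150DN embryos (SD, n = 3 each; limma, adjusted p = 0.986).

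Tex19.1 and Sycp3 were called higher against the EGFP 8-cell libraries in all 15 alternative settings for p150DN and all 13 for blastocysts.

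Dazl encodes an RNA-binding protein that controls translation in germ cells (chromosome 17, 50279393 to 50293620). It was low throughout, at 1.44, 2.72 and 2.67 FPKM in EGFP 8-cell embryos, 2.04, 3.02 and 3.05 FPKM in p150DN and 0.645 and 1.08 FPKM in blastocysts, from 37 to 175 fragments per library. The 8-cell groups overlapped and the blastocyst libraries were below both. p150DN and EGFP 8-cell embryos differed by 0.19 on the log2 scale, with a 95% interval of −0.35 to 0.73 (limma, adjusted p = 0.56), and quantile normalization turned the sign (−0.20). Dazl was lower in blastocysts than in EGFP 8-cell embryos by −0.80 ± 0.24 (SE; limma, adjusted p = 0.0219) and higher in p150DN embryos than in blastocysts by 0.99 ± 0.25 (limma, adjusted p = 0.0302). Both calls were lost on leaving out blastocyst replicate 1 or 2, with adjusted p-values of 0.162 and 0.0613 for the first and 0.201 and 0.136 for the second (limma). The first was also lost without EGFP 8-cell replicate 2 or 3 (0.0513 and 0.0573) and the second without p150DN replicate 2 or 3 (0.0714 and 0.0755).

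Ddx4 encodes the germ cell RNA helicase VASA, a core part of the granules in which germ cells process small RNAs (chromosome 13, 112598333 to 112652633). Its FPKM were 11.5, 16.4 and 12.5 in EGFP 8-cell embryos, 6.17, 7.30 and 15.5 in p150DN and 3.81 and 3.43 in blastocysts. In p150DN, replicates 1 and 2 lay below every EGFP 8-cell library and replicate 3 lay within their range. The difference between p150DN and EGFP 8-cell embryos was −0.53 ± 0.30 on the log2 scale, with a 95% interval of −1.21 to 0.16 (SE; limma, adjusted p = 0.204), and without p150DN replicate 3 it was −0.89 and called (limma, adjusted p = 0.0237). Ddx4 fell between the EGFP 8-cell stage and the blastocyst by 1.63 ± 0.19 (limma, adjusted p = 0.000308). p150DN embryos were above blastocysts in every library, by 1.11 ± 0.35, which narrowly missed the threshold (limma, adjusted p = 0.0549) and passed it in 6 alternative settings, among them without p150DN replicate 1 (1.34; limma, adjusted p = 0.0308).

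Mael encodes maelstrom, a protein of the piRNA pathway, in which small RNAs silence transposons (chromosome 1, 166201385 to 166238744). It was at 3.73, 4.57 and 4.11 FPKM in EGFP 8-cell embryos, at 3.78, 10.4 and 11.5 FPKM in p150DN and at 6.51 and 5.23 FPKM in blastocysts. p150DN replicates 2 and 3 were the highest of the 8 libraries, while replicate 1 lay within the EGFP 8-cell range. The difference between p150DN and EGFP 8-cell embryos was 0.78 ± 0.34 on the log2 scale and did not pass (SE; limma, adjusted p = 0.105). It was called without p150DN replicate 1, at 1.22 (limma, adjusted p = 0.00303), and was −0.10 when p150DN replicates 2 and 3 were left out together. Replicates 2 and 3 are also the libraries with the most genes above 0, and the part of that in the Mael values was not tested. Against blastocysts p150DN differed by 0.36 ± 0.41 (limma, adjusted p = 0.523), and by 0.81 without replicate 1 (limma, adjusted p = 0.0259). Both blastocyst libraries lay above all EGFP 8-cell libraries, by 0.42 ± 0.17 (limma, adjusted p = 0.0678), with a sign that turned under quantile normalization (−0.029).

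Stk31 encodes a germ cell protein with a Tudor domain and a kinase-like domain (chromosome 6, 49395506 to 49469506). It was at 2.89, 5.28 and 3.45 FPKM in EGFP 8-cell embryos, at 5.70, 8.43 and 6.48 FPKM in p150DN and at 7.42 and 8.24 FPKM in blastocysts. The highest EGFP 8-cell library lay just under the lowest p150DN library, and p150DN and blastocysts overlapped. Stk31 was higher in p150DN by 0.71 ± 0.23 on the log2 scale (SE; limma, adjusted p = 0.0438) and in blastocysts by 0.89 ± 0.23 (limma, adjusted p = 0.0119). The p150DN call was lost in 8 of 15 alternative settings, with adjusted p-values from 0.0238 to 0.318 over all of them, and leaving out EGFP replicate 1 or 3 or p150DN replicate 2 or 3 was enough to lose it. The blastocyst call was lost without blastocyst replicate 1 or 2 (0.0731 and 0.106). Against blastocysts p150DN differed by −0.18, with a 95% interval of −0.66 to 0.30 (limma, adjusted p = 0.535).

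Dmrtb1 encodes a DM-domain transcription factor that acts as spermatogonia leave mitosis for meiosis (chromosome 4, 107676288 to 107704011). In EGFP 8-cell embryos it was the most abundant of the 8 genes per length, at 59.2, 60.8 and 56.0 FPKM, beside 33.8, 49.1 and 36.7 FPKM in p150DN and 3.29 and 4.14 FPKM in blastocysts. The 3 groups did not overlap. Dmrtb1 was lower in p150DN than in EGFP 8-cell embryos by −0.56 ± 0.15 on the log2 scale (SE; limma, adjusted p = 0.0218), a call lost on leaving out EGFP replicate 1 or 2 or p150DN replicate 1 or 3, with adjusted p-values from 0.0577 to 0.0765. From the EGFP 8-cell stage to the blastocyst it fell by 3.67 ± 0.13, a mean level 15.8 times lower (limma, adjusted p = 1.13e-05). p150DN embryos held a mean level 10.7 times that of blastocysts, a log2 difference with a 95% interval of 2.62 to 3.58 (limma, adjusted p = 0.00158).

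Taf7l encodes a germ cell paralog of Taf7, a subunit of the general transcription factor TFIID, and is X-linked (chromosome X, 134460116 to 134476505). It was at or under 0.134 FPKM in the EGFP 8-cell libraries (2, 1 and 5 fragments) and at 0.0534 and 0.0460 FPKM in blastocysts (2 fragments each). p150DN replicate 1 held 0 fragments, where 3 fragments, the limit that a count of 0 allows, would be 0.0761 FPKM, while replicates 2 and 3 held 0.555 and 0.655 FPKM (21 fragments each). p150DN replicates 2 and 3 were the highest of the 8 libraries, and replicate 1, given that limit, cannot be placed above or below the other groups. The higher ones are again the libraries with the most genes above 0, whose part was not tested. With the filter lifted, the difference between p150DN and EGFP 8-cell embryos was 0.36 on the log2 scale (limma, adjusted p = 0.246).

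**Figure D3:**
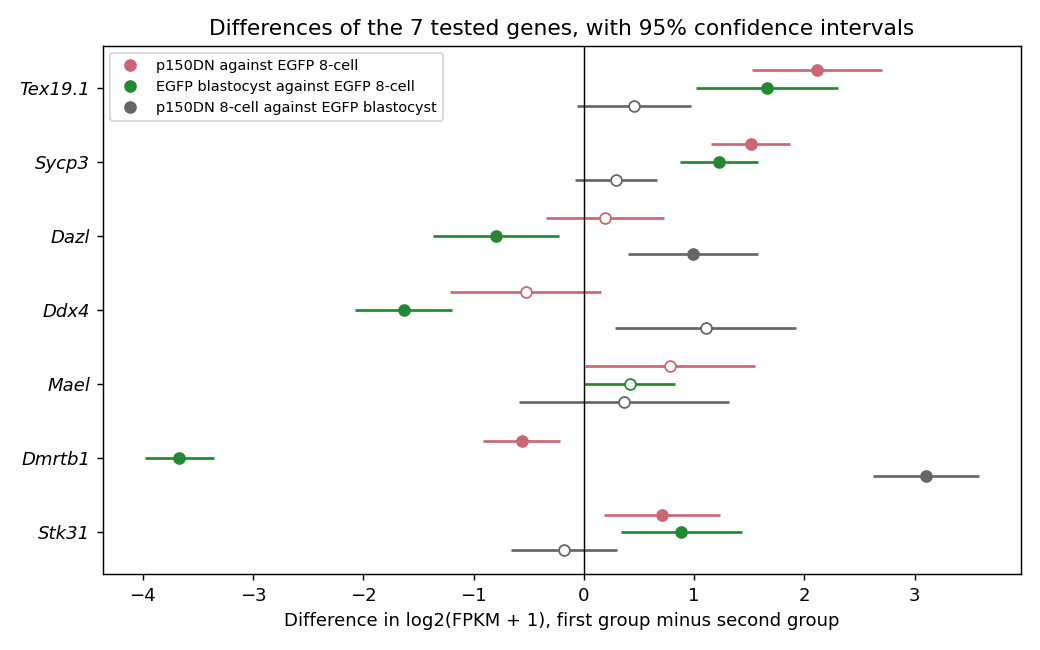
Difference in log2(FPKM + 1) (x axis, first group minus second) of the 7 tested germline genes in 3 comparisons, with 95% confidence intervals (bars); filled points are called at an adjusted p below 0.05, open points are not. The p150DN and blastocyst points of Tex19.1, Sycp3 and Stk31 both lie to the right of 0, whereas those of Dmrtb1 lie to the left at −0.56 and −3.67. Under quantile normalization the p150DN point of Dazl (−0.20) and the blastocyst point of Mael (−0.029) move to the left of 0.

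Over the normal course from the EGFP 8-cell stage to the blastocyst, the 7 tested genes split evenly apart from Mael. Tex19.1, Sycp3 and Stk31 rose and Dazl, Ddx4 and Dmrtb1 fell, beside 67.5% of all 12199 tested genes called (42.6% higher and 24.9% lower). The median difference of the 7 was 0.42 on the log2 scale and that of all genes 0.28. The split over all genes was 5198 higher and 3038 lower, which became 4027 and 3985 with median-of-ratios scaling. The 6 genes kept their signs under both other scalings, and Stk31 lost its call under quantile normalization (0.46; limma, adjusted p = 0.0927). Most genes were called between these stages, and 6 of 7 called among the germline genes is to be read against that share.

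Set against blastocysts, p150DN 8-cell embryos had higher Dazl and Dmrtb1. Construct and stage differ together in this comparison and cannot be told apart. Both genes were also higher in EGFP 8-cell embryos than in blastocysts. No gene of the 7 was called lower by limma, nor was any lower at an unadjusted p below 0.05, while 3 were higher at that level. Among all 12648 tested genes 26.1% were called, 11.9% higher and 14.2% lower in p150DN. The median of the 7 was 0.46 and that of all genes −0.050 on the log2 scale. This comparison leans on 2 blastocyst libraries: leaving out one or the other brought the genes called from 3301 to 116 or 79 and the called germline genes to 1.

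Other germline genes of the same kind, 36 on a list chosen with earlier results of these data known, moved in both directions in p150DN embryos. Of the 36, 31 were tested. Of these 4 were higher, 3 lower and 24 not called, beside 24.6% higher and 9.68% lower of all tested genes. The list median was 0.053, that of all genes 0.19. With median-of-ratios scaling, where all genes split 2023 higher and 1994 lower, the list had 2 higher and 7 lower. With quantile normalization, where all genes split 1748 and 1827, the list had 1 and 10. On leaving out 1 library 1 to 5 were higher (1 without EGFP replicate 3) and 0 to 4 lower (0 without EGFP replicate 1). Dmc1, the meiotic recombinase, went from 1.67, 2.25 and 1.70 FPKM in EGFP 8-cell to 23.3, 5.39 and 4.59 FPKM in p150DN embryos (1.74 ± 0.49 on the log2 scale, SE; limma, adjusted p = 0.0238), with replicate 1 far above the others. Fkbp6, a chaperone of meiosis and the piRNA pathway, was higher by 1.14 ± 0.27 (limma, adjusted p = 0.0132) and Hormad1, a protein of meiotic chromosome axes, by 0.84 ± 0.22 (limma, adjusted p = 0.0195). Tdrd9, a helicase of the piRNA pathway, was lower by −0.88 ± 0.24 (limma, adjusted p = 0.0204). Sycp1 and Sycp2, partners of Sycp3, did not move as it did. Sycp1, the transverse filament of the same complex, was lower by −0.72 ± 0.21 (limma, adjusted p = 0.0303) and Sycp2, the other lateral element protein, by −0.72 ± 0.21 (limma, adjusted p = 0.0264). Both calls were lost without EGFP replicate 1. Syce1 (0.28; limma, adjusted p = 0.513) and Syce2 (−0.31; limma, adjusted p = 0.129), of the same complex, were not called. Hormad2, a relative of Hormad1, was higher by 0.79 (limma, adjusted p = 0.0293). Sycp1, Sycp2, Syce1, Syce2 and Hormad2 are named outside the rule, after their values were seen.

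From the EGFP 8-cell stage to the blastocyst 42.6% of all tested genes rose and 24.9% fell, with a median of 0.28. Of these 31 genes 6 rose, 14 fell and 11 were not called, with a median of −0.26. The largest falls were of D1Pas1, a DEAD-box helicase of the testis (−2.28 ± 0.20; limma, adjusted p = 9.8e-05), Brdt, the testis bromodomain protein (−2.19 ± 0.21), Tex101 (−2.12 ± 0.21) and Tex11 (−1.98 ± 0.18). Dmc1 and Fkbp6 rose by 1.86 and 1.49. Against blastocysts, p150DN embryos had 11.9% of all tested genes higher and 14.2% lower, with a median of −0.050. Of the 31 genes 6 were higher, 2 lower and 23 not called, with a median of 0.40. On leaving out 1 library 0 to 11 were higher (0 without blastocyst replicate 1 or 2, 11 without p150DN replicate 1) and 0 to 2 lower. Tex15, a gene of meiosis and piRNA silencing, led them at 1.97 ± 0.35 (limma, adjusted p = 0.0108). Its level was 2.42 ± 0.424 FPKM in EGFP 8-cell, 4.88 ± 2.14 FPKM in p150DN (SD, n = 3 each) and 0.429 ± 0.0511 FPKM in blastocyst libraries (SD, n = 2).

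The repressors of these genes were expressed in all groups. Of 14 genes of PRC1.6 and E2F6, 4 were higher, 2 lower and 8 not called in p150DN embryos, beside 24.6% higher and 9.68% lower of all tested genes, and 5 were lower with median-of-ratios scaling. Their median was −0.12 on the log2 scale, that of all genes 0.19, and 1 was lower without p150DN replicate 3 and 3 without replicate 2. E2f6 itself was at 6.35, 8.28 and 8.39 FPKM in EGFP 8-cell embryos, 17.1, 19.5 and 20.5 FPKM in p150DN and 19.0 and 24.8 FPKM in blastocysts. It was higher in p150DN by 1.21 ± 0.16 on the log2 scale (SE; limma, adjusted p = 0.00116), and no p150DN library overlapped the EGFP 8-cell ones. Yaf2, a subunit that links the complex's RING proteins, was higher by 0.95 and Hdac2, a histone deacetylase, by 0.77, while Pcgf6, the subunit that defines PRC1.6, was lower by −0.85 ± 0.21 (limma, adjusted p = 0.0149). Pcgf6 went from 46.0 ± 8.18 FPKM in EGFP 8-cell to 25.4 ± 7.08 FPKM in p150DN (SD, n = 3 each) and 11.7 ± 0.825 FPKM in blastocyst libraries (SD, n = 2). Of the 14, 4 rose and 6 fell between the EGFP 8-cell stage and the blastocyst, beside 42.6% and 24.9% of all tested genes. In p150DN 2 of the 14 were higher than in blastocysts, beside 11.9% of all tested genes. These 2 became 0 without blastocyst replicate 1 or 2 and 1 without p150DN replicate 3.

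Among 8 genes that place or read methylation of lysine 9 on histone H3, 3 were higher in p150DN and 1 was lower. The other 4 were not called, and of all tested genes 24.6% were higher and 9.68% lower. Of the 8, 1 was higher and 2 lower under either other scaling. Leaving out EGFP replicate 1 or 2 or p150DN replicate 2 or 3 left 1 higher. The list's median was 0.16 on the log2 scale. Cbx1, the chromatin protein HP1-beta, was higher by 1.70 ± 0.24 on the log2 scale (SE; limma, adjusted p = 0.0014), Atf7ip, the partner of the methyltransferase Setdb1, by 0.94 and Cbx5 by 0.45, while Ehmt2, the methyltransferase G9a, was lower by −0.54. Setdb1 differed by −0.12 (limma, adjusted p = 0.579). Cbx3, another HP1 gene, was counted in the PRC1.6 list and was lower by −0.53 (limma, adjusted p = 0.00703). Its level was 99.8, 102 and 93.0 FPKM in EGFP 8-cell embryos, beside 7.34, 7.61 and 8.07 FPKM for Cbx1. Cbx3 is named after its values were seen. In blastocysts 3 of the 8 were higher and 2 lower than in EGFP 8-cell embryos, beside 42.6% and 24.9% of all tested genes. In p150DN against blastocysts 1 of the 8 was lower, beside 14.2% of all tested genes. On leaving out 1 library the first counts ran from 1 to 4 and from 1 to 2 (1 higher without blastocyst replicate 2, 1 lower without either), and the last was 0 without blastocyst replicate 1 or 2.

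Of 11 genes of DNA methylation and its removal, 10 were tested in p150DN against EGFP 8-cell embryos. By limma 4 were higher, 0 lower and 6 not called, beside 24.6% higher and 9.68% lower of all tested genes. At an unadjusted p below 0.05 by limma 1 was lower. The list median was 0.13 on the log2 scale, that of all genes 0.19. Lower calls numbered 3 with median-of-ratios scaling and 2 with quantile normalization. Tet2, which oxidizes methylated cytosine, was higher by 2.59 ± 0.33 on the log2 scale (SE; limma, adjusted p = 0.00094). Dnmt3l, a cofactor of de novo methylation, was higher by 1.74 ± 0.27, Uhrf1 by 0.97 ± 0.16 and Dnmt3b by 0.69 ± 0.18. The maintenance enzyme gene Dnmt1 differed by −0.27 (limma, adjusted p = 0.231) and Dnmt3a by 0.36 (limma, adjusted p = 0.203). Tet2 reached 9.19 ± 1.42 FPKM in EGFP 8-cell, 65.6 ± 31.5 FPKM in p150DN (SD, n = 3 each) and 166 ± 5.28 FPKM in blastocyst libraries (SD, n = 2). Tdg, the gene not tested in p150DN against EGFP 8-cell embryos, rose by 3.08 ± 0.16 (SE) from the EGFP 8-cell stage to the blastocyst. The 4 genes of this list lower in p150DN than in blastocysts were Tdg (−2.67 ± 0.28, SE, limma, adjusted p = 0.00318), Tet2, Uhrf1 and Dnmt3b. Of all tested genes 14.2% were lower there. These 4 calls became 0 without blastocyst replicate 1 or 2 and 5 without p150DN replicate 3. DNA methylation itself was not measured in the data used here.

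**Figure D4:**
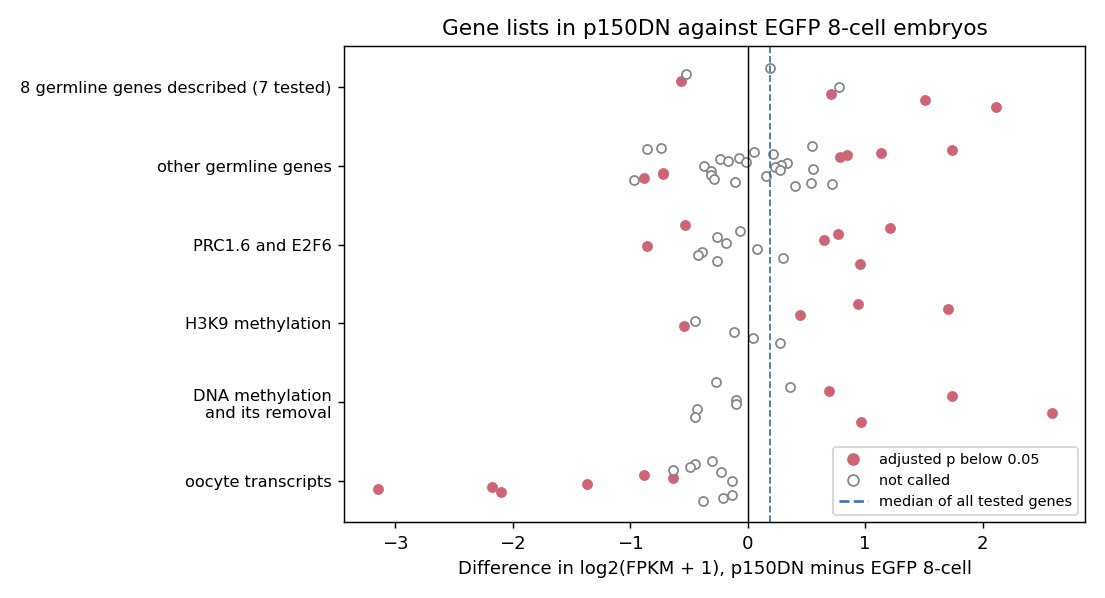
Difference in log2(FPKM + 1) between p150DN and EGFP 8-cell embryos (x axis, p150DN minus EGFP) for each tested gene of 6 lists (rows; height within a row only separates points); filled points are called at an adjusted p below 0.05, open points are not, and the dashed line is the median of all tested genes, 0.19. The other germline genes lie on both sides of that line, with 4 higher and 3 lower (2 and 7 with median-of-ratios scaling, 1 and 10 with quantile normalization), and the called oocyte transcripts all lie to the left of 0.

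Maternal transcripts were followed beside the germline genes through 16 genes of the oocyte, among them the egg coat genes Zp1, Zp2 and Zp3. Their summed level was 178, 254 and 155 FPKM in EGFP 8-cell embryos, 59.0, 129 and 105 FPKM in p150DN and 19.3 and 18.4 FPKM in blastocysts. Every p150DN library lay below every EGFP 8-cell library and above both blastocyst libraries. Of 15 tested, 6 were lower and 9 not called in p150DN, beside 9.68% lower of all tested genes. Between the EGFP 8-cell stage and the blastocyst 15 of 15 fell, beside 24.9% of all tested genes. In p150DN 11 of the 15 were higher than in blastocysts, beside 11.9% of all tested genes. The 6 lower calls in p150DN became 4 without any one of the EGFP libraries or p150DN replicate 3 and 8 without p150DN replicate 2, and numbered 10 without p150DN replicates 2 and 3 together. The 15 that fell between the stages numbered 15 without each library in turn. The 11 higher in p150DN than in blastocysts became 0 without blastocyst replicate 1 or 2, 4 without p150DN replicates 2 and 3 together and 6 with no filter on low values. Omt2b (−3.14 ± 0.59 on the log2 scale, SE; limma, adjusted p = 0.00468), Omt2a (−2.18 ± 0.44), Oosp1 (−2.10 ± 0.35) and Npm2, the egg's chromatin chaperone (−1.36 ± 0.20), were the most reduced in p150DN. Dmrtb1 had the same order of groups as this sum, and Ddx4 and Dazl shared with it the low values in blastocysts. The part of maternal transcripts in the levels of Dmrtb1, Ddx4 and Dazl was not tested.

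**Figure D5:**
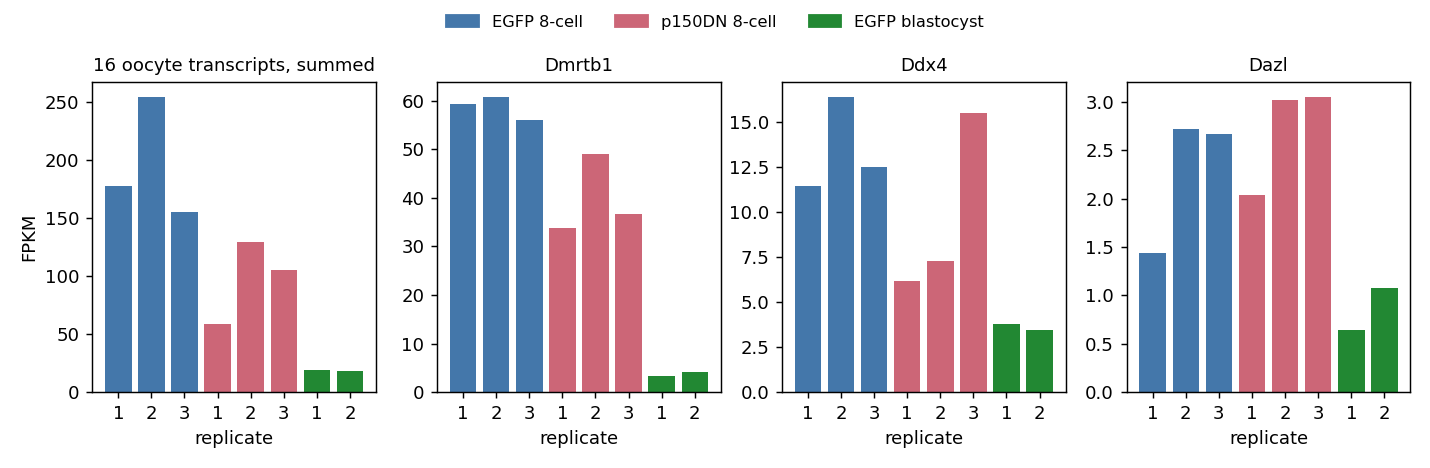
FPKM (y axis, from 0, its own scale in each panel) in each library (bars, by replicate number) of 16 oocyte transcripts summed and of Dmrtb1, Ddx4 and Dazl. The summed oocyte transcripts run from 155 to 254 in EGFP 8-cell, from 59.0 to 129 in p150DN and from 18.4 to 19.3 in blastocyst libraries, and Dmrtb1 has the same order of groups.

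Markers of other cells that could have come with the embryos were mostly absent. Of 12 markers of cumulus and granulosa cells, which surround the egg, 10 were under 1 FPKM in every library, the aromatase gene Cyp19a1 and the receptor gene Fshr among them. The 2 tested were Amhr2 (lower in p150DN by −1.17 on the log2 scale) and Nr5a2, a transcription factor gene that embryos express as well (−0.54; limma, adjusted p = 0.164). The list's summed level ran from 137 to 274 FPKM in EGFP 8-cell, 127 to 155 in p150DN and 85.1 to 93.6 in blastocyst libraries. Nr5a2, which made up most of the sum, averaged 203, 132 and 86.9 FPKM in these groups. Amhr2 was not absent, with means of 19.8, 8.64 and 1.43 FPKM. Sperm and spermatid markers, 12 genes with the protamine genes Prm1 and Prm2 among them, summed to 1.21 to 2.74 FPKM in EGFP 8-cell, 2.38 to 6.00 FPKM in p150DN and 1.77 to 2.43 FPKM in blastocyst libraries, and 9 of the 12 were under 1 FPKM in every library.

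Of 8 markers of primordial germ cells, the embryonic founders of the germline, 6 were tested. In p150DN limma called 1 of them, beside 34.3% of all tested genes, and at an unadjusted p below 0.05 found 2 lower and 0 higher. The called one was Kit, a receptor gene of germ cell survival (−0.78 ± 0.22 on the log2 scale, SE; limma, adjusted p = 0.0247), which lost its call without EGFP replicate 2 or 3 or p150DN replicate 1 or 3. Nanos3, a germ cell RNA regulator, differed by −0.20 (limma, adjusted p = 0.654). Of 12 markers of the preimplantation embryo 11 were tested, and their summed level was 837 to 1158 FPKM in EGFP 8-cell, 1298 to 1660 FPKM in p150DN and 2482 to 2614 FPKM in blastocyst libraries. Zscan4d, of the 2-cell embryo, was at 0 FPKM in p150DN replicate 1 and blastocyst replicate 1. In p150DN 7 of the 11 were higher, 1 lower and 3 not called, beside 24.6% higher and 9.68% lower of all tested genes. By the blastocyst 7 of the 11 rose and 1 fell, beside 42.6% and 24.9% of all tested genes. Cdx2, a gene of the outer layer of the blastocyst, was among the higher ones (2.72 ± 0.29 and 4.87 ± 0.22; limma, adjusted p of 0.000468 and 1.64e-05). The lower one in both was Tead4, a transcription factor of that layer, named after its values were seen (−1.25 ± 0.13 and −1.37 ± 0.10; limma, adjusted p of 0.000445 and 5.85e-05). In p150DN against blastocysts 6 of the 11 were lower by limma, beside 14.2% of all tested genes. Cdx2 was lower by −2.15 ± 0.29 (limma, adjusted p = 0.00582). Of the 11, 1 or 0 were lower without blastocyst replicate 1 or 2. The part of these stage markers in the levels of Tex19.1, Sycp3 and Stk31 was not tested.

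For each germline gene called in some comparison, the 3 genes of most similar pattern were taken by Pearson r on log2(FPKM + 1) over the 8 libraries, among the 10703 genes that averaged 1 FPKM or more. All r values rest on the same 8 libraries in 3 groups, so they mostly describe the order of the groups. Tex19.1 was closest to Ppp2ca (r = 0.990), Creg1 (0.985) and Slc25a35 (0.984). Sycp3 was closest to Tmem38b (0.993), Myh7b (0.993) and Adrb3 (0.992). Dmrtb1, whose r exceeded 0.95 with 368 genes, was closest to Trim43c (0.996), Bex6 (0.995) and Dtnb (0.992). Ddx4 was closest to Sez6l2 (0.987), Aven (0.976) and Brap (0.969), Dazl to Fam98a (0.991), Gys1 (0.983) and Klhl6 (0.961), and Stk31 to Tmem30b (0.977), Dennd1a (0.976) and Plk3 (0.973). None of these 18 genes is among the 8, and Dazl had the fewest close genes, 8 above an r of 0.95.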

How the data were processed

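RNA-seq of 8 libraries was used, and the other 65 of the series' 73 samples were not analysed here. Total RNA went into a SMART-seq stranded kit, per the labels' protocols. The submitters' processing notes name Trim Galore, HISAT2, Bowtie2, SAMtools, featureCounts and mm10, without versions or roles. For the annotation and strand setting, not given in the sources used here, overlapping and antisense genes remain uncertain. Per the file headers, the authors deposited FPKM, 1 column per library. Columns named for 8-cell embryos without p150DN were taken as EGFP 8-cell, the one other 8-cell RNA-seq group in the labels. Whole fragments were recovered for 23314 of 23316 genes above 0 (within 0.02 fragments). Genes with very few fragments can meet this tolerance at a wrong length, so for them the match is no check.

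Each comparison was a two-sided fit of limma 3.58.1 (R 4.3.3; lmFit, then eBayes with its trend option) on log2(FPKM + 1) of all genes passing the filter. A fit held the libraries of its own 2 groups, and Benjamini-Hochberg adjustment ran over all tested genes. The pipeline was tested on simulated data. FPKM fixes each library's total, so a change in RNA per embryo cannot be seen. Alternatives were a pseudocount of 0.1, no filter or 5 FPKM, 2 other scalings, a common fit, no trend, a replicate block and libraries left out. Symbols were matched to RefSeq (GRCm38.p6) for 24920 of 25220.

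The genes and the 9 lists were chosen with earlier results of these data known. Named were the 8 genes, Chaf1a, up to 4 called genes per list and comparison with the largest differences, and the 3 most similar genes of each called gene. Other genes, such as Tex19.2, Chpt1, Sycp1, Sycp2, Syce1, Syce2, Hormad2, Cbx3, Setdb1, Dnmt1 and Dnmt3a, were named after their values were seen.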

Additional observations from a re-analysis of the deposited data

How the results depend on the processing

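Tex19.1 and Sycp3 stayed called in all 15 alternatives for p150DN against EGFP 8-cell embryos and all 13 for blastocysts, where Dmrtb1 and Ddx4 also stayed called in all 13. For p150DN against EGFP 8-cell embryos the genes called were 4023, and 2538 to 4066 on leaving out 1 library (2538 without EGFP replicate 1) and 2483 without p150DN replicates 2 and 3. In that comparison 4 germline genes were called, and 2 to 4 were called on leaving out 1 library, with 2 without EGFP replicate 1. They were not always the same genes: Mael was called without p150DN replicate 1 and Ddx4 without p150DN replicate 3. For p150DN against blastocysts the genes called went from 3301 to 1555 with no filter on low values, to 79 to 4152 on leaving out 1 library (116 and 79 without blastocyst replicate 1 and 2) and to 1079 without p150DN replicates 2 and 3. The called germline genes there went from 2 to 1 with no filter, to 1 to 5 on leaving out 1 library and to 1 without p150DN replicates 2 and 3. The lone library of a group reduced to 1 is assumed to vary like the other group. Signs turned for uncalled differences: in p150DN against EGFP 8-cell embryos Dazl was −0.20 with quantile normalization, −0.0091 to 0.33 on leaving out 1 library (−0.0091 without EGFP replicate 1) and −0.084 without p150DN replicates 2 and 3, where Mael was −0.10. Mael was −0.029 between the stages with quantile normalization, and −0.52 in p150DN against blastocysts without p150DN replicates 2 and 3. The cause of these changes was not tested, beyond the fewer samples. Replicate numbers were not taken as pairs in the main fits. Same-numbered p150DN and EGFP 8-cell libraries deviated from their group means with r of 0.06, 0.10 and 0.03. Not every library correlated best with its own number, and so few libraries per group cannot decide whether the numbers pair them. With the replicate number as a block 4081, 7858 and 3146 genes were called in the 3 comparisons, and 4, 6 and 1 germline genes, the last by the loss of Dazl (limma, adjusted p = 0.0659). Depth was lowest for Taf7l, with 0 to 21 fragments per library, and then for Dazl, with 37 to 175.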
